A study of Arabidopsis thaliana with 4 samples.

Results

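The abscisic acid (ABA) signaling core and the ABF transcription factors were followed through 9 genes in leaf RNA of *Arabidopsis thaliana*. The genes were taken by name and locus from the 32633 loci measured, with no threshold on their values. They were the transcription factors *ABF1*, *ABF2*, *ABF3*, *ABF4* and *ABI5*, the phosphatases *ABI1*, *ABI2* and *HAB1*, and the kinase *SnRK2.6*, also called OST1. All 9 were found and had a mean of at least 1 FPKM (fragments sequenced, scaled to transcript length and to the mapped fragments of the library) over the 4 libraries, the filter that 16905 loci passed. *ABI5* passed it only through its 2 libraries numbered 2, since the 2 numbered 1 were below 1 FPKM.

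The *ldl1 ldl2* libraries, replicates 2 and 1, came from a double mutant made by crossing the T-DNA insertion lines *ldl1-1* (Salk_048276) and *ldl2-1* (Salk_135831), both in the Columbia-0 background. The WT libraries, replicates 2 and 1, came from unmutated Columbia-0 (Col-0) plants. *LDL1* and *LDL2* are plant relatives of the histone demethylase LSD1. All plants were uninfected and untreated, had days of 12 h of light and gave their leaves 3 weeks after sowing. The mutant stands for 1 combination of alleles. The sources used here give neither the number of plants behind a library nor the hour of harvest, and they do not say whether equal replicate numbers mean plants raised together. The questions that follow from this layout for the 9 genes are how *ldl1 ldl2* differed from WT within each replicate number, and how replicate 2 differed from replicate 1 within each genotype.

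ABA is the hormone by which plants answer drought, cold and salt, and in leaves it closes stomata. It binds receptors of the PYR/PYL family, and the bound receptors block the clade A protein phosphatases 2C, among them *ABI1*, *ABI2* and *HAB1*. Free phosphatases keep SnRK2 kinases switched off, and once the phosphatases are blocked SnRK2 kinases phosphorylate bZIP transcription factors. The factors *ABF1* to *ABF4*, and *ABI5*, which is best known from seeds and seedlings, bind ABA-responsive elements (ABREs) with the core ACGTG. Many of the genes that encode these parts are themselves induced by ABA.

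The bases before the start of a gene are where such elements would lie, so 3 windows of 250 bases that end at the RefSeq start are printed, read 5′ to 3′ on the strand of the gene from TAIR10.1. The *ABI5* and *ABF1* windows are shown because these genes had the widest spread between libraries, and the *ABF3* window because *ABF3* is a factor whose levels were apart by genotype instead. Capitals mark ACGTG on either strand (CACGT is its complement), and overlapping matches run together as CACGTG, the G-box. The windows lie at chr2:15207637-15207886 (minus strand) for *ABI5*, chr1:18399753-18400002 (plus strand) for *ABF1* and chr4:16295084-16295333 (plus strand) for *ABF3*.
ABI5: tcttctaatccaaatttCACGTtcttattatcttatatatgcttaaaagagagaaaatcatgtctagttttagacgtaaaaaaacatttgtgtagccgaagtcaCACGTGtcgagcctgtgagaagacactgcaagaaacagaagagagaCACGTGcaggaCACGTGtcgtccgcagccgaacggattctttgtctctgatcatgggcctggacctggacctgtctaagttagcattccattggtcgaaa
ABF1: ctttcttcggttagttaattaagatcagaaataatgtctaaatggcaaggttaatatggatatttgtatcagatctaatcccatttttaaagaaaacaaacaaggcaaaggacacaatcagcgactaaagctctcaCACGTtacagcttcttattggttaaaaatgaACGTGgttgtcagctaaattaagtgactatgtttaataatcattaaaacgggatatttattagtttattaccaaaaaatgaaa
ABF3: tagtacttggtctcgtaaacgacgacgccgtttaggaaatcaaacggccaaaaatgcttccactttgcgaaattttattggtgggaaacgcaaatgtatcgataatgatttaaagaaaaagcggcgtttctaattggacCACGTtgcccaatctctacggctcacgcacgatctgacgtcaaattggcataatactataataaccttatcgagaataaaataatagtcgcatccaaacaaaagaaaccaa

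The *ABI5* window held ACGTG 7 times, as 3 G-boxes, each of which counts on both strands, and 1 further copy. The *ABF1* window held it 2 times, 114 and 83 bases before the start, and the *ABF3* window 1 time, 111 bases before the start. *ABF4* and *HAB1* also held 1 copy each, at 72 and 19 bases, so that 5 of the 9 windows held the core, against 22.9% of 27438 windows of the same length over all genes. The G-box count was made after the sequence had been seen, and 27 of all windows (0.0984%) held at least 3. The evening element AAAATATCT, searched on both strands, lay 177 bases before the start of *ABI2* and 212 bases before that of *SnRK2.6*, and 2.36% of all windows held it. The element CCGAC, the core of the drought and cold element DRE, lay 99 bases before the start of *ABF4* and in no other member window, against 12.0% of all windows. No copy of the 3 motifs lay in the *ABF2* and *ABI1* windows. These are matches of letters and do not show that a protein binds there.

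The libraries were alike in depth, and their steps between low values correspond to about 12800000 to 14600000 fragments each. The targeted genes were low in all 4 libraries. *LDL1* was at 4.09 and 4.44 FPKM in *ldl1 ldl2* replicates 2 and 1, against 5.001 and 4.37 FPKM in WT replicates 2 and 1. *LDL2* was at 0.673 and 0.281 FPKM in *ldl1 ldl2*, against 0.944 and 1.04 FPKM in WT, in the same order. Since reads on either side of a T-DNA insertion count toward the gene, *LDL1* and *LDL2* levels give no check of the labelled genotypes. Summed levels of 5 leaf mesophyll markers lay between 52071 and 63800 FPKM in the 4 libraries, and 3 of 4 seed markers were at 0 in all of them. The mesophyll sum does not stand for each of its markers. Without overlap 3 of the 5 were lower and 1 was higher in replicate 2, beside 24.5% and 40.6% of all genes. *RCA* was called lower in replicate 2 (-1.46 in log2, limma, adjusted p = 0.023). It was at 2876 and 2441 FPKM in replicate 2 of *ldl1 ldl2* and WT, against 6497 and 8143 FPKM in replicate 1. The libraries stood apart by replicate number more than by genotype. In fits with 1 term each, limma called 1981 genes between replicate numbers and 0 between genotypes. The fit on genotype alone counts the difference between replicate numbers as spread. With both terms in the fit, 4044 genes were called between replicate numbers and 348 between genotypes. Genes of the circadian clock that peak in the morning summed to 59.5 and 61.1 FPKM in replicate 2 of *ldl1 ldl2* and WT, against 172 and 315 FPKM in replicate 1. Evening clock genes summed to 452 and 450 FPKM in replicate 2 of *ldl1 ldl2* and WT, against 14.3 and 8.87 FPKM in replicate 1. The clock levels thus split the libraries along the same line as every comparison of replicate numbers that follows, and their part in those comparisons was not tested. The growth or harvest of equally numbered plants cannot be told apart from the replicate number, and in bulk leaf tissue fewer cells of a type and less RNA per cell cannot be told apart.

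**Figure D1:**
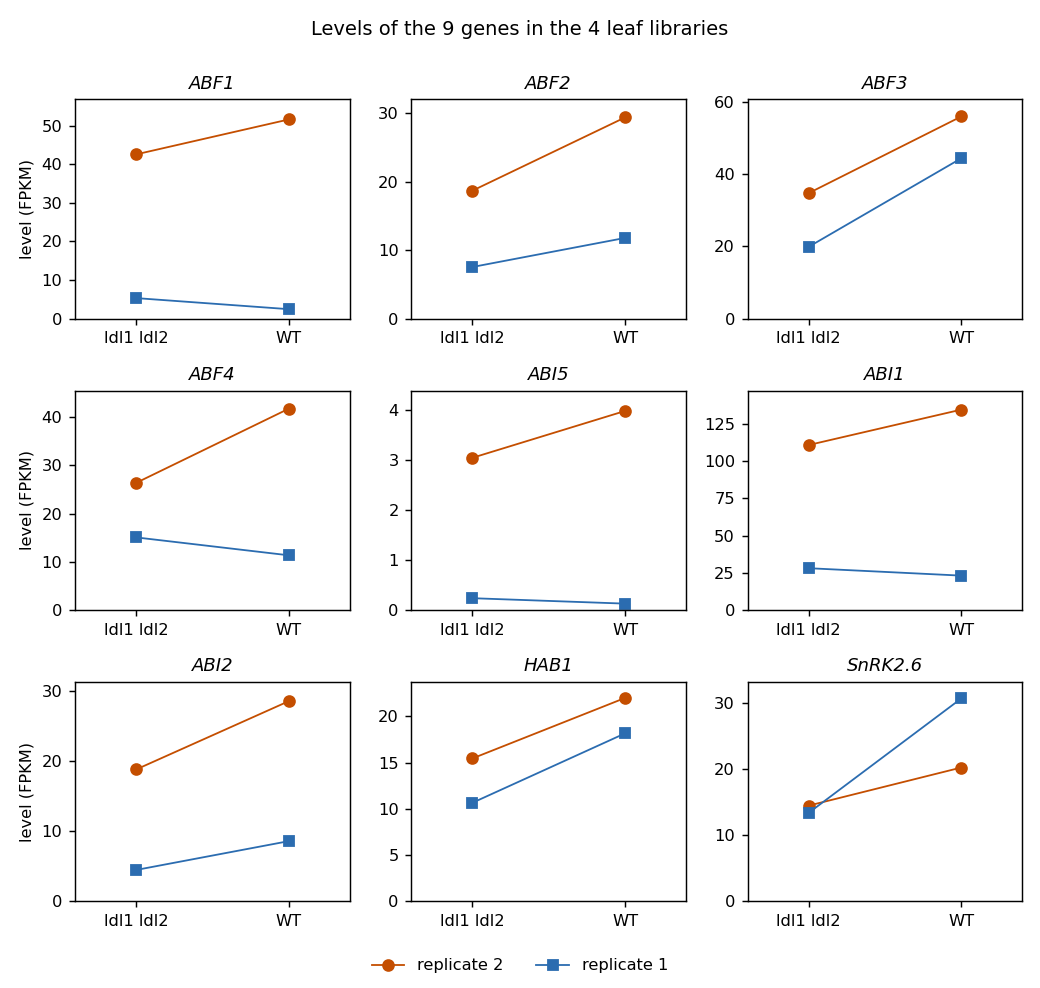
Levels of the 9 genes in FPKM (y axis of each panel, from 0) in *ldl1 ldl2* (left) and WT (right), 1 point per library; lines join libraries of the same replicate number, replicate 2 in orange circles and replicate 1 in blue squares. The orange line lies above the blue one over its whole length for 8 genes and crosses it for *SnRK2.6*, and for *ABF1*, *ABI1* and *ABI5* both orange points lie far above both blue ones.

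In the leaves, 6 of the 9 genes were apart by replicate number and 3 by genotype. Of all genes tested, 40.6% were higher and 24.5% lower in replicate 2 without overlap. By genotype 8.25% were higher and 13.3% lower in *ldl1 ldl2* without overlap. For *ABF1*, *ABF2*, *ABF4*, *ABI1*, *ABI2* and *ABI5* both libraries numbered 2 were above both libraries numbered 1. For *ABF3*, *HAB1* and *SnRK2.6* both *ldl1 ldl2* libraries were below both WT libraries. A gene cannot do both, so the 2 sets of genes exclude each other by construction. By mean level over the 4 libraries the order was *ABI1* (74.2 FPKM), *ABF3* (38.7), *ABF1* (25.5), *ABF4* (23.6), *SnRK2.6* (19.7), *ABF2* (16.9), *HAB1* (16.6), *ABI2* (15.1) and *ABI5* (1.85 FPKM). FPKM are scaled by transcript length, so levels can be set against each other between genes. Neighbours in this order overlapped in their ranges over the libraries, except that the lowest *ABI2* value (4.49 FPKM) was above the highest *ABI5* value (3.98 FPKM).

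Among the phosphatases, *ABI1* (AT4G26080, chromosome 4 from 13219915 to 13222376 in TAIR10.1, minus strand), whose dominant mutants make plants insensitive to ABA, was the most abundant. It was at 111 and 28.1 FPKM in *ldl1 ldl2* replicates 2 and 1, against 135 and 23.1 FPKM in WT replicates 2 and 1. The libraries numbered 2 were the high ones in both genotypes, by 3.95-fold in *ldl1 ldl2* and 5.83-fold in WT, while the genotypes overlapped. Folds and percentages are ratios of FPKM, while fitted differences and tests are on the log2(FPKM + 1) scale. On that scale *ABI1* was higher in replicate 2 by 2.22 ± 0.21 (SE, limma, adjusted p = 0.0075). The fitted genotype difference was -0.0035 ± 1.10, and it turned to 0.053 when libraries were scaled by their median ratio.

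*ABI2* (AT5G57050, chromosome 5 from 23087122 to 23089631, plus strand), a close relative of *ABI1*, was at 18.8 and 4.49 FPKM in *ldl1 ldl2* replicates 2 and 1, against 28.6 and 8.60 FPKM in WT replicates 2 and 1. It was higher in replicate 2 in both genotypes, by 4.20-fold in *ldl1 ldl2* and 3.32-fold in WT (1.74 ± 0.35 in log2, SE, limma, adjusted p = 0.035). Within each replicate number it was also lower in *ldl1 ldl2*, at 65.9% of the WT level in replicate 2 and 52.2% in replicate 1, but the genotypes overlapped because the replicate numbers lay farther apart. The fitted genotype difference of *ABI2* was -0.69 ± 0.87 in log2.

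*HAB1* (AT1G72770, chromosome 1 from 27389948 to 27393327, plus strand), a phosphatase that binds and inactivates *SnRK2.6*, was apart by genotype. It was at 15.5 and 10.7 FPKM in *ldl1 ldl2* replicates 2 and 1, against 21.99 and 18.2 FPKM in WT replicates 2 and 1, with means of 13.1 ± 3.39 FPKM in *ldl1 ldl2* and 20.1 ± 2.71 FPKM in WT (SD, n = 2 each). Both *ldl1 ldl2* values lay under both WT values, at 70.3% and 58.7% of WT in replicates 2 and 1. The difference did not pass the test (-0.60 ± 0.31 in log2, SE, limma, adjusted p = 1.00). Between replicate numbers *HAB1* differed by 0.38 ± 0.31 in log2 and did not pass either (adjusted p = 0.438). Of the summed FPKM of the 3 phosphatases, *ABI1* made up 76.4% and 72.7% in replicate 2 of *ldl1 ldl2* and WT, against 65.0% and 46.3% in replicate 1.

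The kinase *SnRK2.6* (AT4G33950, chromosome 4 from 16271745 to 16274825, plus strand), which acts in guard cells to close stomata, was the one member without a higher level in replicate 2 of both genotypes. It was at 14.5 and 13.4 FPKM in *ldl1 ldl2* replicates 2 and 1, against 20.3 and 30.7 FPKM in WT replicates 2 and 1. The means were 13.9 ± 0.773 FPKM in *ldl1 ldl2* and 25.5 ± 7.40 FPKM in WT (SD, n = 2 each). Both *ldl1 ldl2* libraries were below both WT libraries, at 71.5% of WT in replicate 2 and 43.6% in replicate 1. The fitted genotype difference was -0.80 ± 0.32 in log2 and did not pass (SE, limma, adjusted p = 1.00). Between replicate numbers the values overlapped, with a difference of -0.24 ± 0.41 and opposite signs in the genotypes (0.11 in *ldl1 ldl2* and -0.58 in WT). The 6 guard cell markers, which bear on where *SnRK2.6* acts, summed to 34.4 and 108 FPKM in *ldl1 ldl2* replicates 2 and 1, against 33.1 and 101 FPKM in WT. This sum was carried by *GC1*, which was lower in replicate 2 (-3.42 in log2, limma, adjusted p = 0.0037) as the only one of the 6 to pass, and none of the 6 markers passed the test between genotypes. Without overlap 5 of the 6 were lower and 1, *SLAC1*, was higher in replicate 2, beside 24.5% and 40.6% of all genes. *SLAC1* was at 4.91 and 5.35 FPKM in replicate 2 of *ldl1 ldl2* and WT, against 3.16 and 3.07 FPKM in replicate 1 (0.57 in log2).

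Among the factors, *ABF1* (AT1G49720, chromosome 1 from 18400003 to 18402628, plus strand), a bZIP protein that binds ABREs, had the widest fitted difference between replicate numbers at the pseudocount of 1 used here, while with 0.1 that of *ABI5* was as wide (3.66 for *ABF1* and 3.69 for *ABI5*). It was at 42.6 and 5.32 FPKM in *ldl1 ldl2* replicates 2 and 1, against 51.6 and 2.45 FPKM in WT replicates 2 and 1. Replicate 2 was higher 7.997-fold in *ldl1 ldl2* and 21.1-fold in WT (3.36 ± 0.33 in log2, SE, limma, adjusted p = 0.0076). The genotype ratio had opposite signs, with *ldl1 ldl2* at 82.5% of WT in replicate 2 and at 217% in replicate 1, and the fitted difference was 0.30 ± 1.64 in log2. *ABF1* overlaps AT1G49730 on the opposite strand, which did not follow it, with 14.005 and 28.1 FPKM in *ldl1 ldl2* replicates 2 and 1, against 10.4 and 20.7 FPKM in WT. *ABF3*, *ABF4* and *ABI1* also overlap a locus on the opposite strand. The library kit keeps strand, but whether quantification used it is not given in the sources used here.

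*ABF2* (AT1G45249, chromosome 1 from 17165125 to 17167924, minus strand), also known as AREB1, was at 18.7 and 7.55 FPKM in *ldl1 ldl2* replicates 2 and 1, against 29.4 and 11.8 FPKM in WT replicates 2 and 1. It showed a like ratio in every direction, being 2.48-fold and 2.49-fold higher in replicate 2 of *ldl1 ldl2* and WT, and at 63.6% and 64.0% of WT in replicates 2 and 1. The replicate difference of 1.23 ± 0.31 in log2 missed the threshold (SE, limma, adjusted p = 0.063), and the genotype difference was -0.60 ± 0.64.

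*ABF4* (AT3G19290, chromosome 3 from 6687042 to 6690123, plus strand), also known as AREB2, was at 26.4 and 15.1 FPKM in *ldl1 ldl2* replicates 2 and 1, against 41.7 and 11.3 FPKM in WT replicates 2 and 1. Both libraries numbered 2 were the high ones, by 1.75-fold in *ldl1 ldl2* and 3.68-fold in WT. The difference of 1.28 ± 0.28 in log2 passed narrowly (SE, limma, adjusted p = 0.047). Between genotypes the ratio of *ABF4* was below 1 in replicate 2 (63.2% of WT) and above 1 in replicate 1 (133% of WT), with a fitted difference of -0.13 ± 0.70 in log2.

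*ABF3* (AT4G34000, chromosome 4 from 16295334 to 16298285, plus strand), the factor that with *ABF2* and *ABF4* carries much of the ABA response under drought in Arabidopsis, was apart by genotype. It was at 34.7 and 19.9 FPKM in *ldl1 ldl2* replicates 2 and 1, against 55.9 and 44.4 FPKM in WT replicates 2 and 1. The means were 27.3 ± 10.5 FPKM in *ldl1 ldl2* and 50.1 ± 8.17 FPKM in WT (SD, n = 2 each). Both *ldl1 ldl2* libraries lay below both WT libraries, at 62.1% of WT in replicate 2 and 44.8% in replicate 1, the widest fitted genotype difference of the 9 genes. This difference of -0.90 ± 0.38 in log2 did not pass the test (SE, limma, adjusted p = 1.00). Between replicate numbers *ABF3* differed by 0.55 ± 0.43 in log2 and did not pass (adjusted p = 0.415). The makeup of the 4 ABF genes therefore differed between libraries. *ABF3* was 28.4% and 31.3% of their summed FPKM in replicate 2 of *ldl1 ldl2* and WT, against 41.6% and 63.4% in replicate 1, while *ABF1* was 34.8% and 28.9%, against 11.1% and 3.50%.

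*ABI5* (AT2G36270, chromosome 2 from 15204659 to 15207636, minus strand), which holds back germination and seedling growth under ABA, was the scarcest member. It was at 3.04 and 0.236 FPKM in *ldl1 ldl2* replicates 2 and 1, against 3.98 and 0.128 FPKM in WT replicates 2 and 1. By the depth estimate these levels stand for about 77.3 to 86.3 and 5.3 to 5.9 fragments in *ldl1 ldl2*, against 98.8 to 110 and 3.1 to 3.5 fragments in WT, depending on the transcript. At so few fragments in replicate 1 a fold would have little meaning, and none is given. The fitted difference of 1.93 ± 0.26 in log2 passed the test (SE, limma, adjusted p = 0.015) and grew to 3.69 with a pseudocount of 0.1 in place of 1. Since *ABI5* met the filter on low values through the same libraries in which it was high, its call is not independent of that filter, although the value without the filter was also past the threshold (adjusted p = 0.033). Between genotypes *ABI5* overlapped, with a fitted difference of -0.08 ± 0.96 that turned to 0.093 with that pseudocount. Some markers of other organs differed beside it. The 3 flower markers summed to 4.31 and 8.64 FPKM in replicate 2 of *ldl1 ldl2* and WT, against 1.39 and 0.292 FPKM in replicate 1. Of these markers *SEP3* was at 3.13 and 4.46 FPKM in replicate 2 of *ldl1 ldl2* and WT, against 0.0969 and 0 FPKM in replicate 1, and *AP1* was at 0 except in WT replicate 2. *AG* was at 1.17 and 0.726 FPKM in replicate 2 of *ldl1 ldl2* and WT, against 1.30 and 0.292 FPKM in replicate 1, so that it was not higher in replicate 2 of *ldl1 ldl2*. The 3 root markers summed to 3.15 and 6.14 FPKM in replicate 2, against 1.03 and 0.161 FPKM in replicate 1. This sum was carried by 1 gene, *PYK10*, at 3.15 and 6.09 FPKM in replicate 2, against 1.03 and 0.161 FPKM in replicate 1. *RHD6* was at 0.0538 FPKM in WT replicate 2 and at 0 elsewhere, and the root hair gene *EXP7* was at 0 in all 4 libraries. The part of other tissue in the *ABI5* difference was not tested.

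Between genotypes, none of the 9 genes passed the test. They had fitted log2 differences between -0.90 (*ABF3*) and 0.30 (*ABF1*) with a median of -0.60, beside -0.04 over all 16905 genes tested, and the adjusted p was 1.00 for each. In the fit on genotype alone no gene of the whole table passed (0.0% called higher and 0.0% called lower by limma), while 394 genes, none of them a member, had p under 0.05 before adjustment. That fit counts the difference between replicate numbers as spread. With replicate number as a block, 1710 genes had p under 0.05 before adjustment. Among the members these limma p were 0.0034 (*ABF3*), 0.0087 (*SnRK2.6*), 0.013 (*ABI2*), 0.025 (*ABF2*) and 0.027 (*HAB1*). For the other members they were 0.31 to 0.99, and no member passed after adjustment. Equal numbers are not known to pair the plants. An exact permutation test on any one gene could not have gone below a two-sided p of 0.333 with 2 libraries a side. The 3 members below WT without overlap stand beside 13.3% of all genes that were lower, and 8.25% that were higher, without overlap. Within both replicate numbers 5 members, *ABF2*, *ABF3*, *ABI2*, *HAB1* and *SnRK2.6*, were lower in *ldl1 ldl2*, a direction that 31.0% of all genes shared. No member was at least 2-fold different in both pairs, whereas 1.4% of all genes were 2-fold higher and 0.148% were 2-fold lower. Within replicate 2 alone all 9 members were lower in *ldl1 ldl2*, at between 62.1% (*ABF3*) and 82.5% (*ABF1*) of WT. Within replicate 1, *ABF1*, *ABF4*, *ABI1* and *ABI5* were higher in *ldl1 ldl2* and the other 5 were lower. These ratios rest on 1 library against 1, and whether the genotype difference itself differed between replicate numbers was not tested, since no library is left to measure the spread.

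Between replicate numbers, *ABF1*, *ABF4*, *ABI1* and *ABI2* passed the test, all 4 higher in replicate 2 and above 1 FPKM in every library. *ABI5* was called higher as well, which makes 5 of the 9 genes. It met the filter only through replicate 2, so its call is not independent of that filter. Over all genes 6.58% were called higher and 5.14% lower. The median log2 difference of the members was 1.28, beside 0.14 over all genes tested, and scaling the libraries by their median ratio took the second value to -0.01 and left 4 of the 5 calls, without *ABF4*. Under that scaling the share of calls that were higher, over all genes, was 46.1% in place of 56.1%. Without the filter on low values 3 of the 5 held, without *ABF4* and *ABI2*. No call among the 5 held without WT replicate 2, 2 held without *ldl1 ldl2* replicate 2 and 3 held without either library numbered 1. In both genotypes 8 members were higher in replicate 2, as were 47.2% of all genes. On the log2(FPKM + 1) scale, members at least 2-fold higher in replicate 2 of both genotypes numbered 5 (*ABF1*, *ABF2*, *ABI1*, *ABI2* and *ABI5*), beside 5.02% of all genes. Among them *ABI5* rests on few fragments in replicate 1. No member was 2-fold lower, beside 4.34% of all genes. The 6 members higher without overlap stand beside 40.6% of all genes, and 24.5% were lower without overlap. Each p measures the spread between these 4 libraries only.

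**Figure D2:**
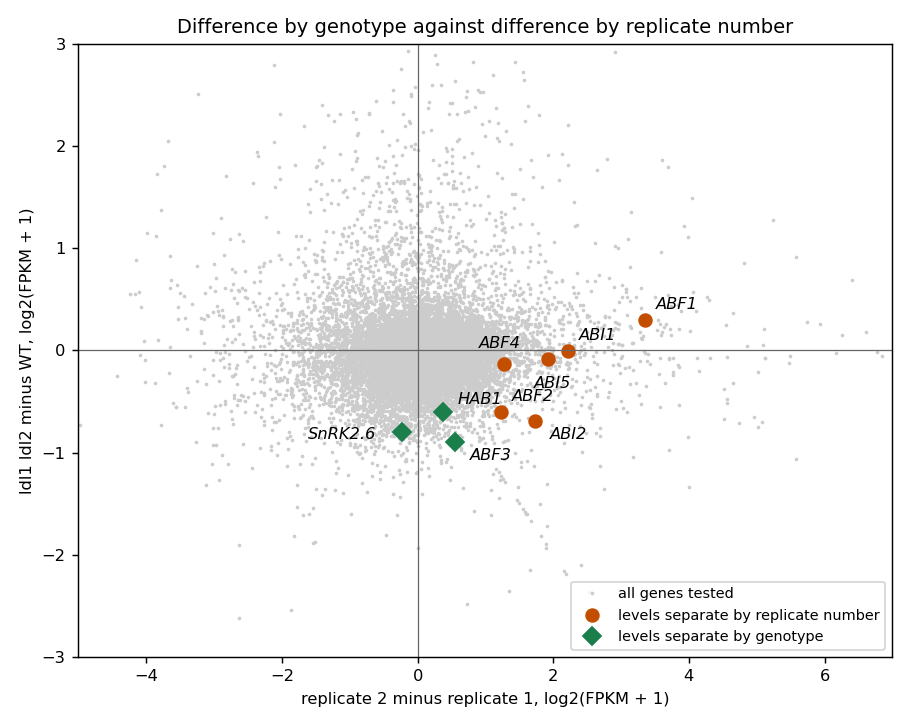
Fitted difference between genotypes (y axis, *ldl1 ldl2* minus WT) against fitted difference between replicate numbers (x axis, replicate 2 minus replicate 1), both in log2(FPKM + 1); grey points are the genes tested, and a few lie outside the axes. Orange circles are the 6 members whose levels were apart by replicate number, which reach 3.36 on the x axis (*ABF1*), and green diamonds the 3 that were apart by genotype, which lie between -0.90 and -0.60 on the y axis.

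Upstream of the phosphatases, the calls among the receptors were in the other direction. Of 14 PYR/PYL genes 7 were measured at a mean of at least 1 FPKM, and limma called *PYR1*, *PYL1*, *PYL4* and *PYL5* lower in replicate 2 and none higher. Over all genes 5.14% were called lower and 6.58% higher. Without overlap 4 receptors were lower and 1, *PYL8*, was higher, beside 24.5% and 40.6% of all genes. The median difference over the 7 receptors was -1.01 in log2. *PYL4* was at 2.63 and 2.07 FPKM in replicate 2 of *ldl1 ldl2* and WT, against 80.1 and 43.5 FPKM in replicate 1 (-4.17 in log2, limma, adjusted p = 0.0052). *PYL5* was at 1.07 and 1.30 FPKM in replicate 2, against 34.7 and 16.9 FPKM in replicate 1 (-3.54, adjusted p = 0.0079). *PYL8*, the receptor known for its role in roots, was at 104 and 94.7 FPKM in replicate 2, against 70.3 and 46.5 FPKM in replicate 1, a difference that did not pass (adjusted p = 0.104).

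The other clade A phosphatases lay on the side of *ABI1* and *ABI2*. Of 6 such genes 4 were measured and limma called 3 (*HAI1*, *HAI2* and *PP2CA*) higher in replicate 2, with a list median of 1.82 in log2. Over all genes 6.58% were called higher. *HAI2* was at 26.8 and 47.0 FPKM in replicate 2 of *ldl1 ldl2* and WT, against 2.04 and 1.16 FPKM in replicate 1 (3.83 in log2, limma, adjusted p = 0.0064). *HAB2*, the closest relative of *HAB1*, differed by 0.61 in log2 and did not pass (adjusted p = 0.096). Summed over all 9 clade A genes, the 3 members included, phosphatase levels were 428 and 487 FPKM in replicate 2 of *ldl1 ldl2* and WT, against 133 and 175 FPKM in replicate 1. The ratio of this sum to the receptor sum was 1.95 and 2.33 in replicate 2 of *ldl1 ldl2* and WT, against 0.333 and 0.598 in replicate 1. Replicate 2 of both genotypes thus had the higher phosphatase to receptor ratio of summed FPKM. Within each replicate number *ldl1 ldl2* had the lower one, with 1 library on either side and no test. The most abundant phosphatase in the sum, *PP2CA*, was at 213 and 198 FPKM in replicate 2 of *ldl1 ldl2* and WT, against 63.4 and 98.2 FPKM in replicate 1.

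**Figure D3:**
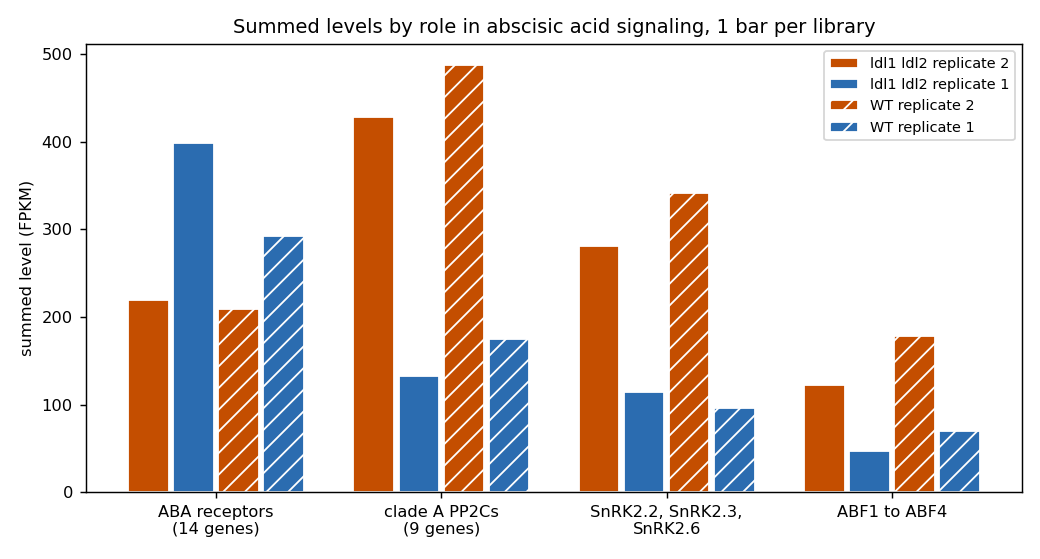
Summed FPKM (y axis, from 0) of the 14 ABA receptors, the 9 clade A phosphatases (PP2Cs), the kinases *SnRK2.2*, *SnRK2.3* and *SnRK2.6*, and *ABF1* to *ABF4*, with 1 bar per library; orange is replicate 2, blue is replicate 1, and hatched bars are WT. The receptor bars are lower in replicate 2 than in replicate 1 (219 and 209 against 398 and 292 FPKM), and the bars of the other 3 groups are higher.

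The nearest relatives of *SnRK2.6* were among the genes called between replicate numbers. *SnRK2.2* and *SnRK2.3*, the kinases that act with *SnRK2.6* in ABA signaling, were higher in replicate 2 by 1.77 and 1.95 in log2 (limma, adjusted p = 0.020 and 0.014). *SnRK2.6* was 5.15% and 5.94% of the summed FPKM of the 3 kinases in replicate 2 of *ldl1 ldl2* and WT, against 11.7% and 31.9% in replicate 1. Of 9 SnRK2 genes besides *SnRK2.6*, 8 were measured, with 2 called higher, 1 called lower (*SnRK2.8*, -1.43) and a median of 0.43 in log2. Over all genes 6.58% were called higher and 5.14% lower. Without overlap 6 of these kinases were higher and 2 lower, beside 40.6% and 24.5% of all genes. Among the lower ones was *SnRK2.10* (-0.66), which was not called (limma, adjusted p = 0.098). Of 8 other group A bZIP genes 4 were measured, and none passed the test between replicate numbers. Their median was 0.24, with *AREB3* at 0.36, *FD*, a flowering factor, at 0.64, *bZIP13* at 0.13 and *GBF4* at -0.08. Of 7 genes that act on *ABI5*, 5 were measured and 3 passed. The ABI5-binding proteins *AFP3* and *AFP1*, which hold *ABI5* back, were higher in replicate 2 by 2.81 and 2.64 in log2 (limma, adjusted p = 0.0088 and 0.010), and *AFP4* was lower (-1.21, adjusted p = 0.045).

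Downstream, 15 of 17 genes known as ABA, drought and cold targets were measured, and limma called 12 higher in replicate 2 and none lower, with a median of 2.25 in log2. Over all genes 6.58% were called higher and 5.14% lower. One of the 12, *TSPO*, was at 0.171 and 0.0781 FPKM in replicate 1 of *ldl1 ldl2* and WT. It met the filter only through replicate 2, so its call is not independent of that filter. Without overlap 14 targets were higher and none lower, beside 40.6% and 24.5% of all genes. The remaining target, *RD20*, had a fitted difference of -0.67 that did not pass. *RD29A*, whose promoter holds both an ABRE and DREs, was at 235 and 328 FPKM in replicate 2 of *ldl1 ldl2* and WT, against 2.27 and 9.33 FPKM in replicate 1 (5.58 in log2, limma, adjusted p = 0.0078). The cold-induced genes *KIN1* and *KIN2* were higher by 4.74 and 4.51 in log2. Between genotypes the 3 widest target differences were those of *RAB18* (-1.34), *RD20* (-1.10) and *RD29A* (-1.07), and none passed the test. *RAB18*, a dehydrin, was at 224 and 25.0 FPKM in *ldl1 ldl2* replicates 2 and 1, against 1055 and 34.3 FPKM in WT, so that both libraries numbered 2 were high and WT replicate 2 the highest. It was called between replicate numbers (4.006 in log2, adjusted p = 0.027). *RD20*, a caleosin, was at 42.9 and 31.4 FPKM in *ldl1 ldl2* replicates 2 and 1, against 43.0 and 149 FPKM in WT, so that its difference rests on WT replicate 1.

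Over the 6 pathway lists together, 43 of 61 genes were measured. Between replicate numbers limma called 19 higher and 6 lower, with a median of 0.64 in log2, beside 6.58% and 5.14% of all genes called. Among the 19 is *TSPO*, which met the filter only through replicate 2. Between genotypes none passed, with a median of -0.16. In both pairs 14 of the 43 were lower in *ldl1 ldl2* and 7 were higher, beside 31.0% of all genes that were lower and 19.8% that were higher. Between replicate numbers the 6 evening clock genes had a median of 4.60, larger than that of any of the 6 lists, and the 6 morning clock genes had a median of -2.03. *ELF4* and *PRR5*, evening genes, were higher in replicate 2 by 6.61 and 5.75, and *LHY* and *CCA1*, morning genes, were lower, at -3.56 and -2.88. *ELF4* and *PRR5* were below 1 FPKM in both libraries numbered 1, and *LHY* in both numbered 2. *ELF4*, *PRR5* and *LHY* thus met the filter only through the libraries where they were high, and their differences are not independent of it.

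**Figure D4:**
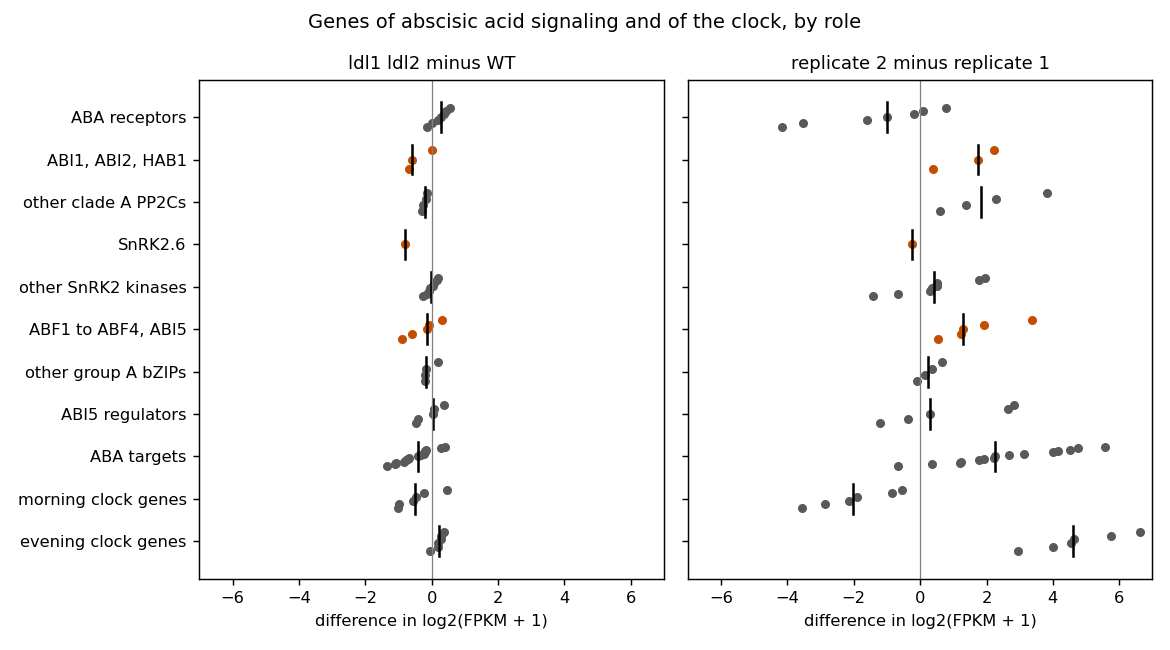
Fitted differences in log2(FPKM + 1) (x axis) between genotypes (left panel, *ldl1 ldl2* minus WT) and between replicate numbers (right panel, replicate 2 minus replicate 1), with genes of ABA signaling and of the clock in rows by role; each dot is a gene tested, orange dots are the 9 members and black bars are medians. Genotype medians lie between -0.80 and 0.27, while the medians by replicate number run from -2.03 for morning clock genes to 4.60 for evening clock genes, with targets at 2.25 and receptors at -1.01.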

How the data were processed

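Leaf RNA of 4 libraries, 2 per genotype, was measured. The authors deposited FPKM per gene and library, made from 100 bp paired-end reads with TopHat2, Bowtie2 and Cufflinks on TAIR10 gene models. The submitters' processing notes name Trimmomatic 0.33, and the sources used here give no other versions. FPKM are not counts, so no count test was run. FPKM sums were 1008263 to 1054500, and depth was estimated from the smallest steps of low values, which tends to understate it.

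Values were taken as log2(FPKM + 1), which understates changes of low genes. Loci averaging at least 1 FPKM over the libraries were tested with limma 3.58.1 (R 4.3.3, trend, two-sided) and Benjamini-Hochberg adjustment at 0.05 over all 16905, with genotype or replicate number as the only term. The fits were also run on simulated data, whose outcome is not given here and is not used for any result. Alternatives were another pseudocount, no filter, other scalings, a replicate block or genotype term, and each library left out. Names, positions and windows came from RefSeq TAIR10.1, which matched 31893 loci.

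Members and lists were chosen with earlier results of these data known. All members are named, and genes of the lists were taken from the 3 measured genes of each with the widest difference in each comparison (all of them for the pathway lists, some for clock and marker lists). *PYR1*, *AP1*, *AG*, *EXP7*, *RHD6* and *TSPO* were named beyond this rule, after their values were seen. Protein sequences were not analysed here.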

Additional observations from a re-analysis of the deposited data

Results flagged for a closer look

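Of the 9 genes, 4 had genotype ratios of opposite sign in the replicate numbers, with *ldl1 ldl2* below WT in replicate 2 and above it in replicate 1. The log2 ratio within replicate 2 minus that within replicate 1 was -1.15 for *ABF1*, -1.02 for *ABF4*, -0.55 for *ABI1* and -0.43 for *ABI5*. *SnRK2.6* had replicate differences of opposite sign in the genotypes, and its replicate difference in *ldl1 ldl2* minus that in WT was 0.68. None of these differences was tested, since each ratio has 1 library on either side.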

How the results depend on the processing

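With replicate number as a block, genotype calls over all genes numbered 348 (311 higher and 37 lower) in place of 0, with no member among them (adjusted p = 0.11 for *ABF3* and 0.193 for *SnRK2.6*, which reached 1.00 under other alternatives). Same-numbered libraries deviated together, with a correlation of 0.726 across 16905 genes, but with 2 pairs this does not show that the numbers pair the plants. Replicate calls numbered 1981 over all genes, 742 with no filter and 4044 with genotype as a further term, and 5, 3 and 6 among the members in the same order. With each library left out in turn, genotype calls ranged from 0 to 4 over all genes, replicate calls from 97 to 1544 over all genes and from 0 to 3 among the members. The fewer libraries and the imbalance they leave between genotype and replicate number come with that choice. The genotype difference of *ABI1* turned to 0.00030 with a pseudocount of 0.1 and to 0.053 with median-ratio scaling, and that of *ABI5* to 0.093 with a pseudocount of 0.1; the cause was not tested. Leaving out a library turned the sign of 6 genotype differences, with ranges of -1.66 to 2.27 for *ABF1*, -1.23 to 0.020 for *ABF2*, -1.03 to 0.76 for *ABF4*, -1.25 to 1.24 for *ABI1*, -1.62 to 0.23 for *ABI2* and -1.16 to 0.99 for *ABI5*, and of 2 replicate differences, with ranges of -0.0089 to 1.11 for *ABF3* and -0.81 to 0.33 for *SnRK2.6*. The genotype differences of the 3 genes without overlap, whose sign the lack of overlap fixes, ranged from -1.28 to -0.51 for *ABF3*, -0.85 to -0.35 for *HAB1* and -1.09 to -0.51 for *SnRK2.6*. In all, 67 of the genotype values of members under the alternatives kept their sign and stayed outside the threshold, and 14 turned. Of the replicate values 63 kept sign and side, 15 lost the call, 1 gained it (*ABF2* with the genotype term, adjusted p = 0.0025, up to 0.293 under others) and 2 turned. Members at least 2-fold higher in replicate 2 of both genotypes numbered 5 under every scaling, pseudocount and filter tried. Depth limits *ABI5*, whose replicate 1 values stand for few fragments.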

Other observations

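The genes whose levels ran most like those of *ABF3*, by Euclidean distance between log2(FPKM + 1) values centred over the 4 libraries, were AT5G61290 (0.092), AT5G42200 (0.153), *ENODL15* (0.163), AT5G25490 (0.166) and AT5G44569 (0.175). AT5G42200, for example, was at 19.0 and 10.7 FPKM in *ldl1 ldl2* replicates 2 and 1, against 32.1 and 21.9 FPKM in WT replicates 2 and 1, so that both *ldl1 ldl2* values lay below both WT values. Such likeness over 4 libraries is a description only.

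*ABF3* and *SnRK2.6*, the members with the widest fitted differences between genotypes, lie on chromosome 4 with 20.5 kb between them. Of 5 loci in between, 3 had a mean of at least 1 FPKM, and 1 of these, AT4G33980, was lower in *ldl1 ldl2* in both pairs. Within replicates 2 and 1, log2 ratios (*ldl1 ldl2* over WT) were 0.24 and -1.39 for AT4G33960, -0.50 and -0.31 for AT4G33980, and 1.02 and 0.46 for AT4G33985. AT4G33980 was at 144 and 204 FPKM in replicate 2 of *ldl1 ldl2* and WT, against 0 and 0.241 FPKM in replicate 1. These loci were looked at after the values of both members were seen.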
